A study of Homo sapiens with 8 samples.

Results

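The 10 genes described here encode a glucose transporter, enzymes of glycolysis and proteins long used as readouts of the hypoxia response: SLC2A1, HK2, PFKP, ALDOA, PGK1, ENO1, LDHA, PDK1, VEGFA and NDRG1. They were taken by symbol, through their Ensembl identifiers, from the 60675 genes counted in each library, and all 10 of 10 passed the filter on low counts that left 16661 genes for testing. The question was how their mRNA levels moved when cells were given indisulam, and how they stood in cells that had become resistant to it.

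Glycolysis splits glucose into pyruvate in the cytosol, and lactate dehydrogenase turns pyruvate into lactate when it is not passed on to mitochondria. Cells short of oxygen stabilise the alpha subunits of the hypoxia-inducible factors (HIF), which pair with ARNT, bind DNA at the short core sequence ACGTG or GCGTG and raise transcription of glucose transporters, most glycolytic enzymes, PDK1 and the angiogenic factor VEGFA. Many pancreatic ductal carcinomas rely on this programme, and a high rate of glycolysis is also seen in them when oxygen is present.

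Panc10.05 is an established human cell line from a pancreatic adenocarcinoma. Indisulam is an aryl sulfonamide that glues RBM39, a splicing factor, to the ubiquitin ligase receptor DCAF15 and so causes its degradation. Parental Panc10.05 cells were left untreated or given 2 µM indisulam for 18 h. The indisulam-resistant cells had been selected in rising doses of the drug. They were sampled while kept on 2 µM (resistant indisulam) or, per the study, after a drug holiday of a week (resistant untreated). There were 2 libraries in each of these 4 groups, which the study calls technical replicates. The resistant cells are a single derived population, so a difference between the lines is a difference between these 2 populations. The 2 libraries of a group may come from the same culture. Where the drug is said below to raise or lower a gene, the treated and untreated libraries differed. In resistant cells this sets continued drug against the drug holiday. The notes on growth and treatment name A549, a lung line, whereas titles and cell line entries name Panc10.05, which was followed here.

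Libraries held between 65266253 and 108002436 reads in genes, and the log2 levels of the 2 libraries of a group correlated across genes at 0.9964 to 0.998. All 8 of 8 ductal epithelial markers listed for the identity check were expressed. Their summed level was 6400 to 6589 CPM (counts scaled to the TMM-adjusted library total) in parental libraries and 10970 to 12380 in resistant libraries. Without drug, 8 of 8 were called higher in resistant cells (adjusted p under 0.05), beside 30.3% of all genes tested. On drug 7 were called higher and 1 lower, beside 34.6% and 34.9%. Summed markers reached at most 4.03 CPM for fibroblasts, 0.194 for leukocytes, 0.426 for endothelium and 0.0462 for acinar cells. The part of the ductal marker shift in the line differences below was not tested. In bulk RNA, a change in every cell and a change in the share of cells in a given state cannot be told apart.

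The HIF core was searched for on both strands in the bases upstream of the start sites that RefSeq annotates for these genes (GRCh38.p14, 250 bases per start). Of the 10 genes, 8 had at least 1 such window, 16 windows in all, some of which overlapped. A match to ACGTG or GCGTG was found in 12 of these 16 windows and in 43.2% of the 35116 windows of all genes. VEGFA and NDRG1 had no window. The stretches printed are those of SLC2A1, LDHA and PGK1. SLC2A1, the gene with a window whose group means ranged most widely, held no match. LDHA and PGK1 are examples with matches, picked without a stated rule. The first of 2 LDHA windows, the one printed, held 5 matches and the second 1, and PGK1 held 3. Window by window, the genes not printed held 2 (ENO1), 3 and 6 (HK2), 0 and 2 (PDK1), 0, 0, 1 and 3 (PFKP) and 1, 2 and 1 (ALDOA). Bases that match on either strand are in capitals, each sequence reads 5′ to 3′ on the strand of the gene, and annotated exon bases were left out.
SLC2A1: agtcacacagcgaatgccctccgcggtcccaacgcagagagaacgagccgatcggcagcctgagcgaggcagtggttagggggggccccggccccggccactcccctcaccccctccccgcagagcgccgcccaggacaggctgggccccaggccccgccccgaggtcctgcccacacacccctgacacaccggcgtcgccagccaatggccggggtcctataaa
LDHA: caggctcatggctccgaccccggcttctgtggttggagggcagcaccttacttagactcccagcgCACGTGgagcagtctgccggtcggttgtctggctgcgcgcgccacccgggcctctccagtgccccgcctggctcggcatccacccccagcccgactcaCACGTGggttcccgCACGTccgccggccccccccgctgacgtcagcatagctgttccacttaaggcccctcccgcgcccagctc
PGK1: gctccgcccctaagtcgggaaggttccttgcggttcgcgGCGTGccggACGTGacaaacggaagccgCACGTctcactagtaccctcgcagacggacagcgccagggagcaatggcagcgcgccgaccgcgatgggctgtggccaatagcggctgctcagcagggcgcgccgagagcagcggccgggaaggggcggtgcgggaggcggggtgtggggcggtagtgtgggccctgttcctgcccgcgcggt
The SLC2A1 stretch is chr1:42958894-42959118 on the minus strand. The LDHA stretch is chr11:18394313-18394559 on the plus strand. Its matches lie in 3 separate places, since the palindrome CACGTG counts once on each strand. The PGK1 stretch is chrX:78103998-78104247 on the plus strand, with 3 separate matches. A match is a run of letters and not a site shown to be bound, and the absence of one in this window says nothing of HIF at SLC2A1.

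The changes were small for most of these genes beside the difference between the lines at VEGFA and SLC2A1. On the log2 scale, the highest and lowest of the 4 group means were 1.36 apart for VEGFA, 1.16 for SLC2A1, 0.97 for PDK1 and 0.954 for NDRG1. They were 0.365 apart for HK2, 0.357 for PFKP, 0.255 for LDHA, 0.218 for PGK1, 0.199 for ENO1 and 0.143 for ALDOA. ENO1, LDHA and PGK1 together held 87.6 to 90.7% of the counted reads of the 10 genes. That total includes ALDOA, whose count, as described below, cannot be read as its expression.

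**Figure D1:**
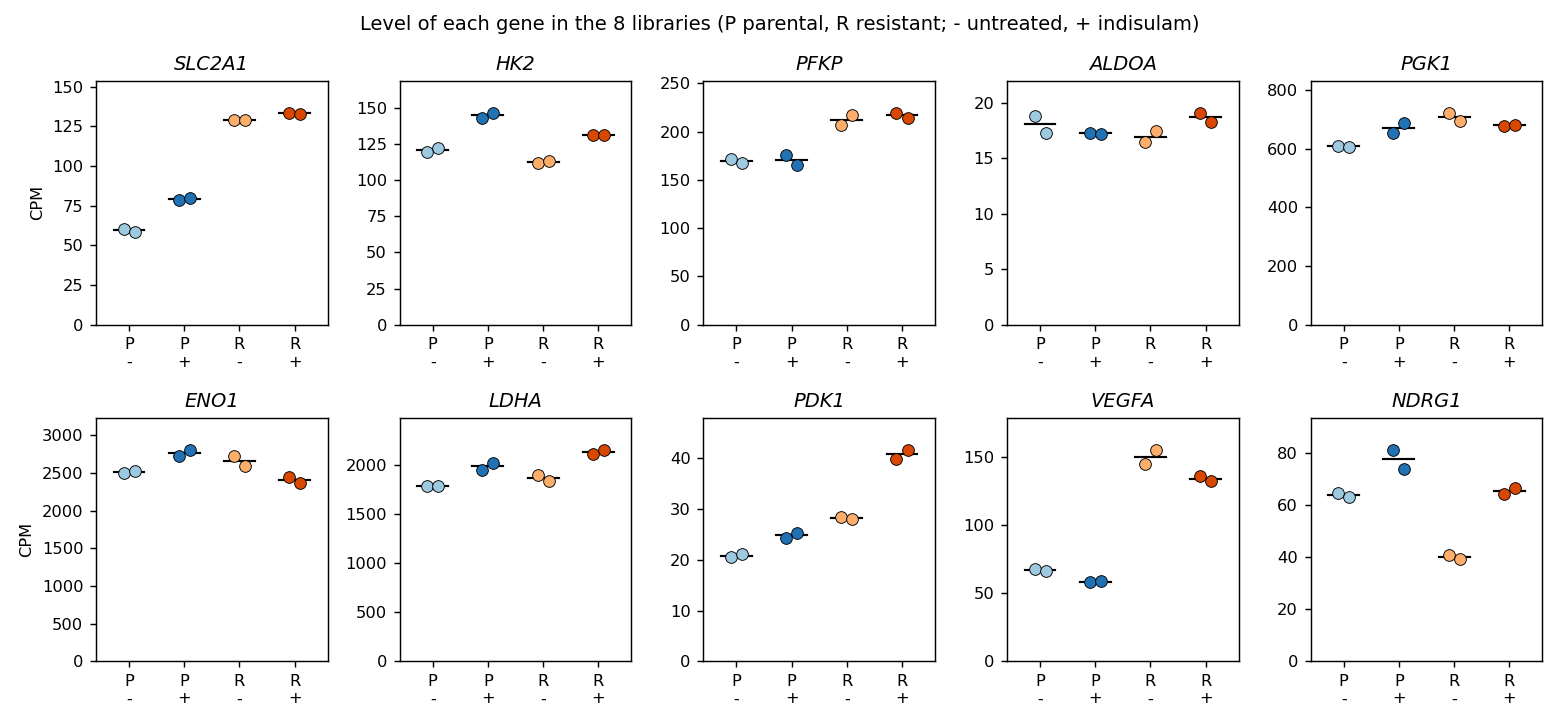
Level of each of the 10 genes in CPM (vertical axes start at 0, each gene on its own scale) in the 8 libraries, with P for parental, R for resistant, - for untreated and + for indisulam. Points are libraries and bars the mean of 2. SLC2A1 and VEGFA were at least 129 and 132 CPM in every resistant library and at most 79.7 and 67.9 CPM in every parental one.

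SLC2A1 encodes GLUT1, the transporter through which most glucose enters proliferating cells, and lies at chromosome 1, 42925353 to 42958893 (GRCh38, GENCODE 44). Parental libraries held 60.4 and 58.5 CPM untreated and 78.8 and 79.7 CPM with indisulam. In resistant cells it was 129 and 129 CPM untreated and 134 and 133 CPM on the drug. The groups of the 2 lines did not overlap, and the resistant libraries were the 4 highest. Indisulam raised SLC2A1 in parental cells by 0.41 on the log2 scale (SE 0.030, edgeR quasi-likelihood test, adjusted p = 7.4e-11). In resistant cells its difference was 0.04 (SE 0.029, adjusted p = 0.22) and did not pass, although it passed when libraries were scaled by their totals (0.0917) or filtered at an average of 1 CPM (0.0712). The responses of the 2 lines differed by -0.37 (resistant minus parental, SE 0.041, adjusted p = 1.4e-07). Resistant cells exceeded parental cells by 1.12 without drug (SE 0.029, adjusted p = 6.0e-20) and by 0.75 with it (SE 0.029, adjusted p = 1.4e-16). As ratios of mean CPM these were 2.17-fold and 1.68-fold.

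HK2, hexokinase 2, traps glucose in the cell by phosphorylation and lies at chromosome 2, 74834127 to 74893359. Parental cells held 119.5 and 122 CPM before and 143 and 147 CPM after treatment, and resistant cells 112 and 113 CPM off and 131 and 131 CPM on the drug. Treated libraries were thus above untreated ones within each line, and resistant libraries below parental ones within each treatment. The drug raised HK2 by 0.26 in parental cells (SE 0.028, adjusted p = 3.9e-08) and by 0.22 in resistant cells (SE 0.029, adjusted p = 8.3e-07). The difference of the responses was -0.04 (SE 0.040, adjusted p = 0.42). Resistant cells were lower than parental cells, with log2 differences of -0.10 without drug (SE 0.029, adjusted p = 0.0030) and -0.15 with it (SE 0.028, adjusted p = 8.5e-05). The treated difference did not pass with library totals (-0.0573, adjusted p = 0.0656), and the untreated one did not pass without the second parental untreated library (-0.0872, adjusted p = 0.0704).

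PFKP is the platelet form of phosphofructokinase 1, the enzyme of the committed step of glycolysis, at chromosome 10, 3066333 to 3137718. Parental libraries held 171 and 167 CPM untreated and 176 and 165 CPM on the drug, and resistant libraries 207 and 217 CPM untreated and 219.6 and 214 CPM on the drug. The 4 resistant libraries were above the 4 parental ones, while treated and untreated libraries of a line overlapped. The drug response was 0.01 in parental cells (SE 0.032, adjusted p = 0.78) and 0.03 in resistant cells (SE 0.032, adjusted p = 0.43), and neither passed. The lines differed by 0.32 without drug (SE 0.032, adjusted p = 8.1e-09) and 0.34 with it (SE 0.033, adjusted p = 2.3e-09).

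ALDOA, aldolase A, cleaves fructose 1,6-bisphosphate and lies at chromosome 16, 30064164 to 30070457. Its counted level, 16.4 to 19.1 CPM over the 8 libraries, cannot be read as its expression. A second annotated locus, ENSG00000285043, lies on the same strand and shares 1254 of the 1350 coding bases of ALDOA (92.9%), so that reads there may have been tallied as ambiguous. That locus itself was counted at 2.25 to 3.24 CPM. On the remaining reads ALDOA was 0.14 higher on the drug in resistant cells (SE 0.051, adjusted p = 0.025) and 0.11 higher in resistant than in parental cells on the drug (SE 0.051, adjusted p = 0.050, under the threshold of 0.05 before rounding). The parental response was -0.07 (SE 0.049, adjusted p = 0.25) and the line difference without drug -0.10 (SE 0.050, adjusted p = 0.10). The former passed with library totals (-0.13) or the filter at 1 CPM (-0.12), and the latter with library totals (-0.12). The calls in treated resistant cells, against untreated resistant and against treated parental cells, were both lost with the DESeq2 Wald test, at adjusted p = 0.107 and 0.138. The first was also lost without the first library of either resistant group, and the second without either parental untreated library or the first resistant indisulam library. The responses of the lines differed by 0.21 (SE 0.071, adjusted p = 0.017), which no longer passed without the first library of the parental untreated, resistant untreated or resistant indisulam group (0.14 to 0.20) or with the DESeq2 Wald test. Without the second parental untreated library the untreated line difference passed, at -0.16.

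PGK1, phosphoglycerate kinase 1, makes the first ATP of the pathway and lies at chromosome X, 77910739 to 78129295. Parental cells gave 611 and 607 CPM without and 655 and 689 CPM with indisulam, and resistant cells 723 and 694 CPM without and 678 and 682 CPM with it. The 2 parental untreated libraries were the lowest and the 2 resistant untreated ones the highest, and the treated libraries of the lines overlapped. The drug raised PGK1 by 0.14 in parental cells (SE 0.030, adjusted p = 0.00028), a call lost without the second parental indisulam library (0.0842). In resistant cells the response was -0.06 (SE 0.030, adjusted p = 0.11), and it passed without the second resistant untreated library (-0.0950). The responses differed by -0.20 (SE 0.042, adjusted p = 0.00039). Without drug resistant cells were 0.22 higher (SE 0.030, adjusted p = 9.6e-07), and on the drug the lines differed by 0.02 (SE 0.030, adjusted p = 0.62), which passed with library totals (0.11) or the filter at 1 CPM (0.0964).

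ENO1, enolase 1, makes phosphoenolpyruvate and lies at chromosome 1, 8861000 to 8879190. Its level went from 2502 and 2525 CPM to 2725 and 2813 CPM in treated parental cells, and was 2727 and 2597 CPM in resistant cells off the drug and 2453 and 2373 CPM on it. It was the one member whose calls in the 2 lines went opposite ways. The drug raised it by 0.14 in parental cells (SE 0.031, adjusted p = 0.00050) and lowered it by 0.14 in resistant cells (log2 difference -0.14, SE 0.031, adjusted p = 0.00055). The responses differed by -0.28 (SE 0.044, adjusted p = 1.3e-05). On the drug, resistant cells were lower by 0.20 (log2 difference -0.20, SE 0.031, adjusted p = 5.1e-06). Without drug they were higher by 0.08 (SE 0.031, adjusted p = 0.026), a call that was lost in 5 of the 8 fits that leave out 1 library, without either parental untreated library, the first resistant untreated library or either resistant indisulam library (0.0473 to 0.0892). Without the second resistant untreated library it was 0.13.

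LDHA encodes the A subunit of lactate dehydrogenase and lies at chromosome 11, 18394560 to 18408425. Counts scaled to 1787 and 1789 CPM in untreated and 1950 and 2025 CPM in treated parental cells, and to 1896 and 1838 CPM in untreated and 2109 and 2159 CPM in treated resistant cells. In both lines the treated libraries were above the untreated ones. The drug raised LDHA by 0.15 in parental cells (SE 0.030, adjusted p = 0.00012) and by 0.19 in resistant cells (SE 0.030, adjusted p = 8.6e-06). The lines differed by 0.06 without drug (SE 0.030, adjusted p = 0.076), which did not pass, and by 0.10 with it (SE 0.030, adjusted p = 0.0038). Without the second resistant untreated library the untreated difference did pass (0.0947), as it did with DESeq2 size factors or the DESeq2 Wald test (0.0755 with each), and without the second parental indisulam library the treated one was 0.16.

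PDK1, pyruvate dehydrogenase kinase 1, phosphorylates and thereby inhibits the complex that passes pyruvate on to the mitochondrial citric acid cycle, and lies at chromosome 2, 172555373 to 172608669. Its level was lowest in parental untreated (20.5 and 21.1 CPM) and then higher in parental indisulam (24.4 and 25.2), resistant untreated (28.4 and 27.98) and resistant indisulam libraries (39.8 and 41.7), in that order. No 2 groups overlapped. The drug raised it by 0.25 in parental cells (SE 0.041, adjusted p = 1.2e-05) and by 0.53 in resistant cells (SE 0.039, adjusted p = 7.0e-11). The resistant response exceeded the parental one by 0.28 (SE 0.056, adjusted p = 0.00023). Resistant cells were 0.44 higher without drug (SE 0.041, adjusted p = 1.6e-09) and 0.72 higher with it (SE 0.039, adjusted p = 6.8e-14).

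VEGFA, the secreted growth factor for blood vessels, lies at chromosome 6, 43770184 to 43786487. Parental libraries held 67.9 and 66.6 CPM untreated and 57.9 and 59.1 CPM treated, whereas resistant libraries held 144 and 155 CPM off the drug and 136 and 132 CPM on it. The 4 resistant libraries were all above the 4 parental ones, and within each line the treated libraries were the lower. VEGFA was the only one of the 10 genes that fell on the drug in both lines, by 0.20 in parental cells (log2 difference -0.20, SE 0.035, adjusted p = 2.9e-05) and by 0.16 in resistant cells (-0.16, SE 0.033, adjusted p = 0.00021). Resistant cells were 1.16 higher without drug (SE 0.033, adjusted p = 3.9e-19) and 1.195 higher with it (SE 0.034, adjusted p = 4.2e-19), or 2.23-fold and 2.29-fold as ratios of mean CPM. The difference of the responses was 0.04 (SE 0.048, adjusted p = 0.51).

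NDRG1 encodes a cytoplasmic protein that is a widely used marker of hypoxia and of iron depletion, and lies at chromosome 8, 133237175 to 133302022. In parental cells 64.5 and 62.9 CPM became 81.2 and 73.9 CPM with indisulam, and resistant cells held 40.8 and 39.2 CPM off and 64.3 and 66.3 CPM on the drug. Resistant untreated libraries were the 2 lowest, and those of resistant cells on the drug overlapped untreated parental ones. The drug raised NDRG1 by 0.28 in parental cells (SE 0.038, adjusted p = 2.2e-06) and by 0.71 in resistant cells (SE 0.041, adjusted p = 1.3e-11), and the responses differed by 0.42 (SE 0.056, adjusted p = 3.3e-06). The direction of its line difference was opposite to that of VEGFA and SLC2A1, with -0.67 without drug (SE 0.041, adjusted p = 7.0e-12) and -0.25 with it (SE 0.039, adjusted p = 9.6e-06). The latter was -0.16 without the first parental indisulam library and still passed.

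**Figure D2:**
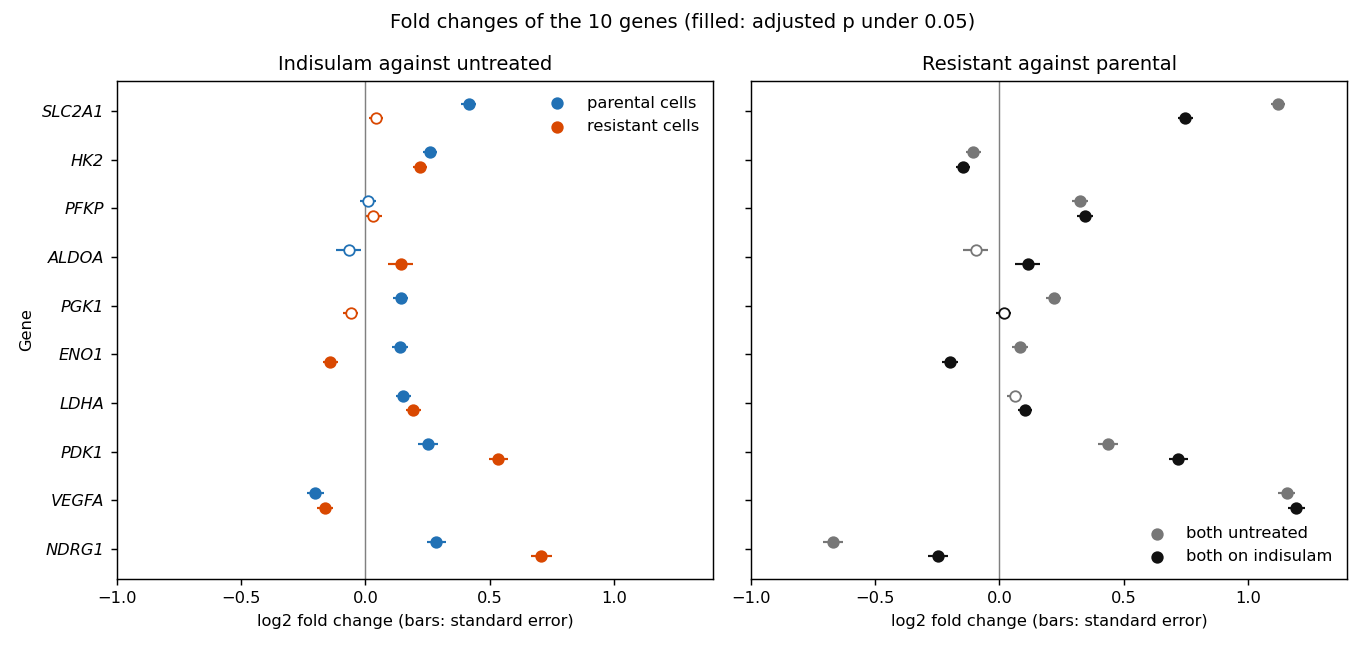
Log2 fold changes of the 10 genes for indisulam against untreated (left, by line) and for resistant against parental cells (right, by treatment), with bars for the standard error and filled points for an adjusted p under 0.05. SLC2A1 and VEGFA lie at 0.75 to 1.195 in the right panel, NDRG1 lies below 0 there, and no drug response exceeded the 0.71 of NDRG1 in resistant cells.

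Counted together, 8 of the 10 genes passed an adjusted p of 0.05 for the drug response of parental cells, 7 higher and 1 lower. Calls were common in these data: 58.2% of all tested genes passed in that comparison, 31.6% higher and 26.6% lower. The median log2 fold change was 0.15 over the 10 genes and 0.01 over all genes tested. For the drug response of resistant cells 7 passed, 5 higher and 2 lower, where 50.7% of all genes passed, 24.9% higher and 25.8% lower. The medians were 0.09 and 0.01. SLC2A1, PFKP and PGK1 did not pass there, and PFKP and ALDOA did not pass in parental cells.

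Between untreated lines, 8 of the 10 genes passed, 6 higher and 2 lower in resistant cells, beside 60.1% of all genes, 30.3% higher and 29.9% lower. The medians were 0.15 for the 10 genes and -0.02 for all. Between the lines on the drug, 9 passed, 6 higher and 3 lower, beside 69.5% of all genes, 34.6% higher and 34.9% lower, with medians of 0.11 and 0.00322. The 3 lower genes were HK2, ENO1 and NDRG1. Neighbouring comparisons share libraries, so their values stand side by side here and are not support for each other.

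With so many calls, a threshold on size was also applied. Tested against a log2 change of 0.5 (glmTreat), 0 of the 10 genes passed for the drug response of parental cells, beside 6.25% of all genes. For resistant cells 1 passed, NDRG1, beside 5.28%. Between untreated lines 3 passed, SLC2A1, VEGFA and NDRG1, beside 15.5%. Between the lines on the drug 3 passed, SLC2A1, PDK1 and VEGFA, beside 21.1%.

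The drug responses of the lines were compared through the interaction term. The exposures were unlike: 18 h of drug against none in parental cells, and continued drug against a drug holiday in resistant cells. The term thus holds line and exposure together, which cannot be told apart. It passed for 6 of the 10 genes, 3 with a higher response in resistant cells (ALDOA, PDK1 and NDRG1) and 3 with a lower one (SLC2A1, PGK1 and ENO1), beside 50.1% of all genes, 22.7% higher and 27.5% lower. Against 0.5, 0 of the 10 passed, beside 5.45%. The ALDOA call rests on counts that cannot be read as its expression, and that call was lost with the DESeq2 Wald test. The 10 genes held calls in both directions, at a share near that of all genes. In resistant cells PDK1 and NDRG1 rose further than in parental cells, whereas the response of SLC2A1 passed in parental cells alone and was the smaller in resistant cells. The PGK1 difference did not pass with library totals (-0.0852), a scaling under which LDHA (0.16), VEGFA (0.15) and PFKP (0.14) passed. LDHA (0.13) and VEGFA (0.12) also passed with the filter at an average of 1 CPM. In the fit used throughout, the difference did not pass for HK2, PFKP, LDHA and VEGFA, which does not show equal responses.

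**Figure D3:**
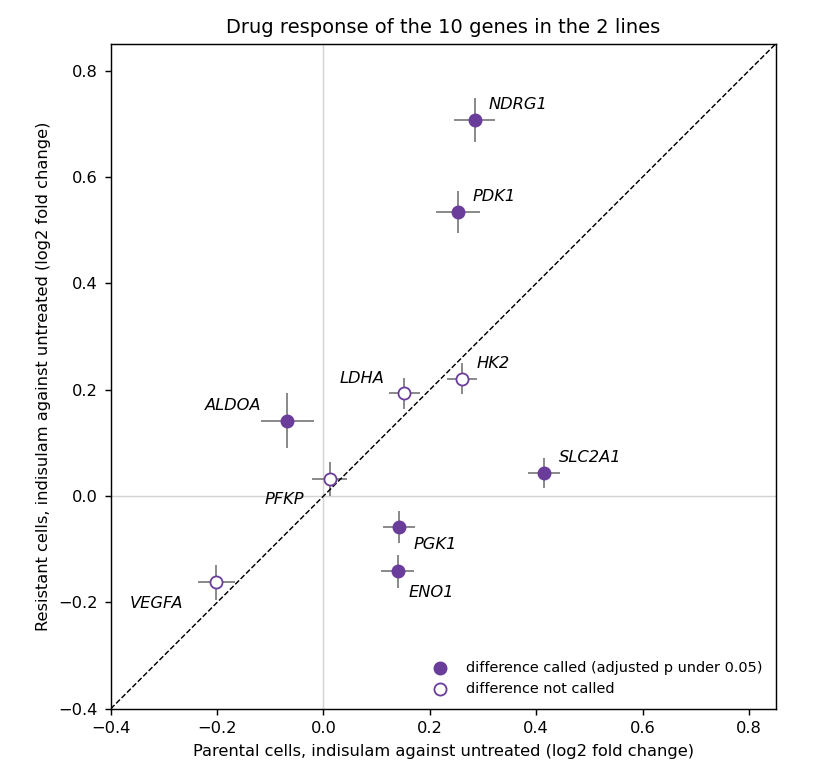
Drug response of each of the 10 genes in parental cells (horizontal, 18 h of drug against none) and resistant cells (vertical, continued drug against a drug holiday). Values are log2 fold changes with standard errors. The dashed line marks equal responses, and filled points are genes whose difference of responses passed an adjusted p of 0.05. NDRG1, PDK1 and ALDOA lie above the line, SLC2A1, PGK1 and ENO1 below it.

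Levels of different genes were compared per kilobase of annotated exon, which understates genes with long or rarely used annotated exons. In parental untreated cells ENO1 was highest at 482 CPM per kb, followed by LDHA at 297 and PGK1 at 112. PFKP (21.8) and HK2 (20.4) followed, then SLC2A1 (8.99), NDRG1 (5.31), VEGFA (4.66) and PDK1 (1.402). The order of ENO1, LDHA and PGK1 was the same in the 4 groups. HK2 was above PFKP in parental indisulam cells, at 24.5 against 21.97 CPM per kb. In resistant untreated cells SLC2A1 (19.5) and HK2 (19.0) were at similar levels, and VEGFA (10.4) was above NDRG1 (3.33). ALDOA is left out of this order because of its shared exons.

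Genes outside the list were ranked by how closely their profile over the 8 libraries followed that of VEGFA or SLC2A1, as the root mean square distance between centred log2 CPM. Among 9173 genes, the closest to VEGFA were SYT7 (0.0573), ORAI2 (0.0768) and SEMA7A (0.0768). The closest to SLC2A1 were MT1E (0.0246), AREG (0.0411) and DUSP10 (0.0687). MT1E belongs to the metallothionein family, whose near-identical members can share reads. The likeness rests on 4 groups of 2 libraries and is a description only.

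Other genes of these pathways were taken from lists. Of 18 other glycolysis enzymes and transporters, 16 were tested. In parental cells 6 rose and 5 fell on the drug (median 0.02), so that 11 of 16 were called beside 58.2% of all genes, and 7 with library totals or the filter at 1 CPM. They were led by PGAM1, a phosphoglycerate mutase (0.16, SE 0.028, adjusted p = 2.7e-05), and ENO2, the neuronal enolase (-0.49, SE 0.054, adjusted p = 6.2e-08). In resistant cells 9 rose and 6 fell (median 0.09), beside 24.9% and 25.8% of all genes. ALDOC, aldolase C, rose by 0.70 (SE 0.063, adjusted p = 2.2e-09) and PFKM, the muscle phosphofructokinase, fell by 0.59 (log2 difference -0.59, SE 0.032, adjusted p = 4.1e-13). Between untreated lines 10 were higher and 4 lower in resistant cells, beside 30.3% and 29.9% of all genes. SLC16A3, the lactate exporter MCT4, was higher by 0.79 (SE 0.034, adjusted p = 4.1e-15), and PFKFB2 lower (-0.56, SE 0.034, adjusted p = 7.5e-13). On the drug 7 were higher and 6 lower, beside 34.6% and 34.9%, with ENO2 at 1.78 (SE 0.050, adjusted p = 3.2e-19) and PFKM at -0.42 (SE 0.032, adjusted p = 3.9e-11). PFKM, SLC16A3 and PFKFB2 overlap a gene on the other strand that was itself counted, and the strand setting of the counting is not given in the sources used here.

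Of 30 other HIF target genes, 26 were tested. On the drug 14 rose and 5 fell in parental cells (median 0.17), beside 31.6% and 26.6% of all genes. In resistant cells 19 rose and 2 fell (median 0.39), beside 24.9% and 25.8%. KDM3A, a histone demethylase, rose most in parental cells (0.42, SE 0.034, adjusted p = 4.2e-10). MIR210HG, the host transcript of a hypoxia-induced microRNA, was low in every library (1.25 to 5.25 CPM) and moved in opposite directions, with -0.69 in parental cells (SE 0.135, adjusted p = 0.00013) and 1.16 in resistant cells (SE 0.119, adjusted p = 2.6e-08). Between untreated lines 12 were higher and 7 lower in resistant cells (median -0.00366), beside 30.3% and 29.9% of all genes, and on the drug 18 were higher and 6 lower (median 0.53), beside 34.6% and 34.9%. PLOD2, a collagen lysyl hydroxylase, was higher by 1.59 (SE 0.050, adjusted p = 2.2e-18) and 2.27 (SE 0.048, adjusted p = 1.1e-21). MXI1, a repressor of the MYC network, was lower, at -0.70 (SE 0.053, adjusted p = 4.3e-11) and -1.27 (SE 0.055, adjusted p = 8.4e-16). The 26 include CA9, ANKRD37, FAM162A and RORA, which, among others, overlap a counted gene on the other strand. They also include genes of low level: STC2 (group means 0.0139 to 0.319 CPM), PPFIA4 (0.352 to 0.997) and RORA (0.725 to 0.853).

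Of 12 genes of oxygen sensing and HIF itself, 11 were tested. In parental cells 4 rose and 3 fell on the drug, beside 31.6% and 26.6% of all genes. CREBBP, a coactivator of HIF, rose by 0.43 (SE 0.031, adjusted p = 6.6e-11), and EGLN2, a HIF prolyl hydroxylase, fell by 0.87 (log2 difference -0.87, SE 0.100, adjusted p = 1.7e-06). In resistant cells the means on and off the drug were 108.8 and 85.7 CPM for CREBBP and 7.88 and 6.03 CPM for EGLN2. In resistant cells 8 rose and 2 fell, beside 24.9% and 25.8% of all genes. HIF1A, the oxygen-regulated subunit, stood at 283 and 283 CPM in untreated and 316 and 311 CPM in treated parental cells, and at 333 and 333 CPM in resistant cells off the drug and 445 and 452 CPM on it. It rose by 0.43 in resistant cells (SE 0.027, adjusted p = 3.9e-12) and was 0.24 higher in untreated resistant than in untreated parental cells (SE 0.027, adjusted p = 4.6e-08). VHL, which marks HIF for degradation, fell by 0.15 in resistant cells (log2 difference -0.15, SE 0.031, adjusted p = 0.00035). Its group mean went from 66.1 to 59.6 CPM there, and likewise from 63.1 to 56.4 CPM in parental cells. Without drug 1 was higher and 2 lower in resistant cells, beside 30.3% and 29.9% of all genes, with EGLN2 at -0.29 (SE 0.095, adjusted p = 0.014). On the drug 6 were higher and 3 lower, beside 34.6% and 34.9%, with EGLN2 at 0.97 (SE 0.103, adjusted p = 3.3e-07) and EPAS1, which encodes HIF-2 alpha, at -0.13 (SE 0.031, adjusted p = 0.00093). EGLN2 shares exons on its strand with the readthrough locus RAB4B-EGLN2, so its counts are uncertain, and its untreated line difference did not pass without the second parental untreated (-0.27) or the first resistant untreated library (-0.0958), and was -0.49 without the second. The EPAS1 difference did not pass without the first parental indisulam library (-0.0784). The count of 3 called between untreated lines was 5 with DESeq2 size factors, library totals, the filter at 1 CPM or without either resistant indisulam library. HIF activity is set largely at the protein level, which was not measured here.

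Of 14 genes of pyruvate entry into mitochondria, all 14 were tested. On the drug 4 rose and 3 fell in parental cells, beside 31.6% and 26.6% of all genes, and 2 rose and 4 fell in resistant cells, beside 24.9% and 25.8%. The 7 calls in parental cells were 4 without the first parental indisulam library. DLD, the shared dihydrolipoamide dehydrogenase, rose by 0.20 in parental cells (SE 0.028, adjusted p = 1.8e-06), and PC, pyruvate carboxylase, fell by 0.79 (log2 difference -0.79, SE 0.056, adjusted p = 4.8e-11). PDK3, a sister kinase of PDK1, rose by 0.61 in resistant cells (SE 0.070, adjusted p = 1.2e-07), and PDHA1, the subunit that these kinases phosphorylate, fell by 0.28 (log2 difference -0.28, SE 0.028, adjusted p = 2.3e-08). Between untreated lines 5 were higher and 6 lower, beside 30.3% and 29.9%. PDP1, a phosphatase that reverses PDK action, was higher by 0.69 (SE 0.029, adjusted p = 5.5e-16), while PDK3 was lower, at -0.82 (SE 0.066, adjusted p = 1.3e-10), the reverse of PDK1. On the drug 3 were higher and 5 lower in resistant cells, beside 34.6% and 34.9%, with PC at 0.65 (SE 0.058, adjusted p = 6.9e-10) and MPC1, a subunit of the mitochondrial pyruvate carrier, at -0.59 (SE 0.056, adjusted p = 1.7e-09). DLD and PC also overlap a counted gene on the other strand.

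**Figure D4:**
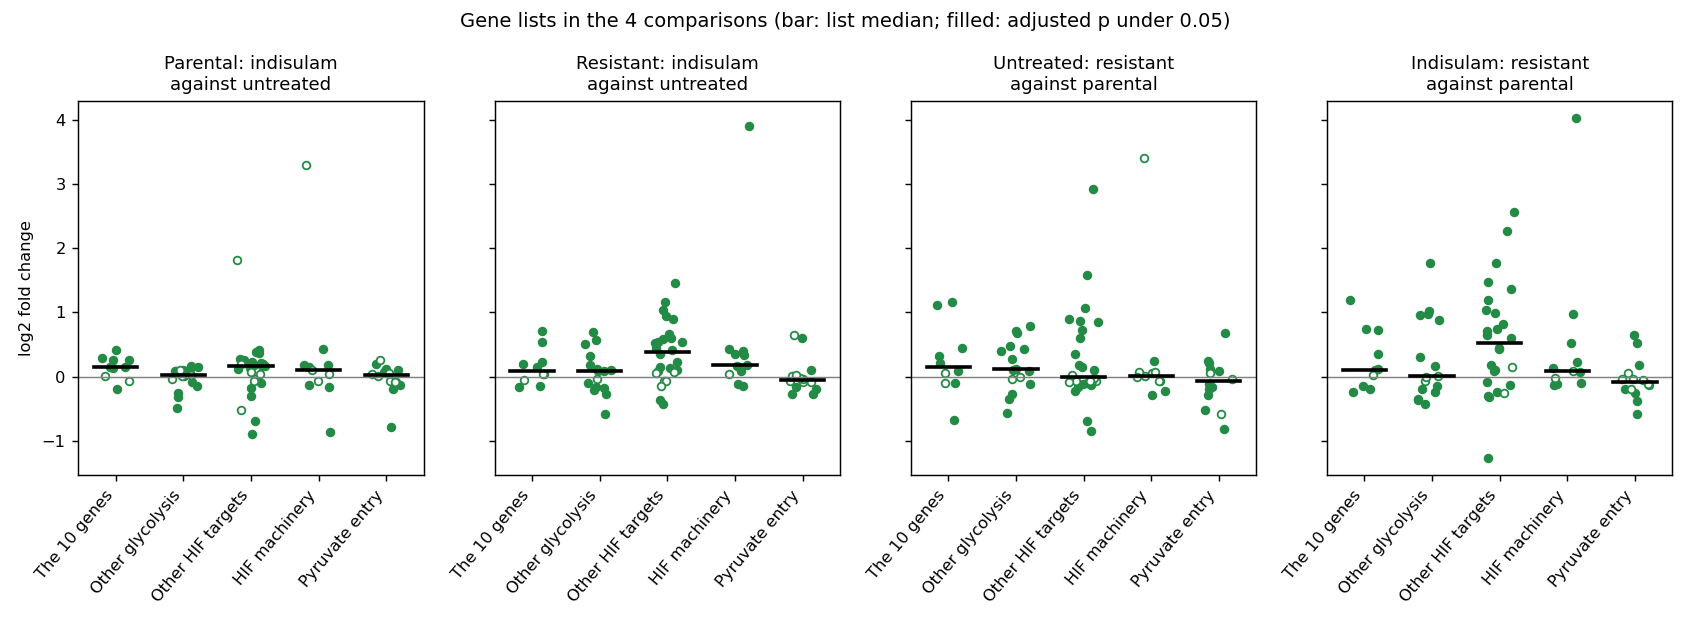
Log2 fold changes of every tested gene of the 5 lists in the 4 comparisons, with a bar at the list median and filled points for an adjusted p under 0.05. The other HIF targets have medians of 0.39 and 0.53 in the panels of resistant cells on the drug, against untreated resistant and treated parental cells. The other medians lie between -0.09 and 0.19, and the points above 3 are ARNT2, a HIF partner near the limit of detection (average log2 CPM -3.51).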

How the data were processed

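RNA was sequenced from 8 libraries of Panc10.05 cells, 2 in each of 4 groups. The authors deposited raw counts of reads per Ensembl gene. Per the study's methods, polyA+ stranded libraries were sequenced paired-end and trimmed with SeqPurge; the submitters' processing notes name HISAT2 2.2.1, Picard, HTSeq and GRCh38. The strand setting and annotation release of the counting are not given in the sources used here. Duplicates (14.07 to 18.43% of reads) and reads of low mapping quality were tallied apart, as were reads outside genes (4.717 to 6.335%), and these lines were left out. Symbols came from GENCODE 44, which matched 60419 of 60675 identifiers.

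Counts were tested in R 4.3.3 with edgeR 4.0.16 (filterByExpr, TMM, robust quasi-likelihood fit of 4 group means, 4 residual degrees of freedom), and p-values were adjusted by Benjamini-Hochberg over all 16661 genes, with a threshold of 0.05. Each group is 2 libraries, so p-values concern the spread between libraries, which may be technical. An exact test of 2 against 2 cannot go below 0.333. The script was tested on simulated data. DESeq2 1.42.0 was an alternative. Reads carry no molecular identifiers, so depth bounds counting error only.

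The 10 genes and the other lists were chosen with earlier results of these data known. From each other list, the gene with the largest rise and the largest fall was named in each 2-group comparison, if it was called and its average log2 CPM reached 1. Of the genes so named, 1 is not reported here. Most alike genes had an average log2 CPM of 3 or more.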

Additional observations from a re-analysis of the deposited data

Results flagged for a closer look

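The drug responses of the 2 lines differed by the interaction test (edgeR, adjusted p under 0.05) for 6 of the 10 genes and for 16 of the 21 other genes named above. All values are log2 responses of resistant minus parental cells, and the 2 lines also differed in exposure to the drug. Among the 10 genes, SLC2A1 stood at -0.37, PGK1 at -0.20 and ENO1 at -0.28, while ALDOA stood at 0.21, PDK1 at 0.28 and NDRG1 at 0.42. The ALDOA value is uncertain because of its shared exons. Among other glycolysis genes the response was higher in resistant cells for ENO2 (1.06), ALDOC (0.60), PFKFB2 (0.49) and SLC16A3 (0.23), and lower for PFKM (-0.50). Among other HIF targets it was higher for MIR210HG (1.85) and PLOD2 (0.68), and lower for MXI1 (-0.57). In oxygen sensing it was higher for EGLN2 (1.26) and HIF1A (0.28), and lower for EPAS1 (-0.14). In pyruvate entry it was higher for PDK3 (0.70) and PC (0.53), and lower for PDHA1 (-0.28), PDP1 (-0.16) and DLD (-0.10). Without single libraries the difference did not pass for EPAS1 (first parental indisulam, first resistant untreated or second resistant indisulam, -0.12 to -0.0985), for PDP1 (first parental indisulam, -0.11), or for DLD in 7 of 8 fits (-0.10 to -0.0475), of which only that without the second resistant untreated library passed. Such differences were common, at 50.1% of all genes tested. The 21 other genes were named for their large changes in the same libraries. Their share is therefore not comparable with that of all genes. With 2 libraries in a group, no library was tested as an outlier.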

How the results depend on the processing

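Each of the 50 log2 fold changes of the 10 genes was recomputed under 9 other settings and without each library in turn. Direction and call were kept for 49 of 50 values with DESeq2 size factors, 46 with the DESeq2 Wald test, 49 with no filter, 43 with a filter at an average of 1 CPM, 46 at an adjusted p of 0.01 and 39 of 40 in fits of the compared groups only. Library totals in place of TMM kept 38, with 3 calls lost and 7 gained, and moved the median interaction of all genes from 0.01 to 0.13, and their share of higher calls from 54.3 to 42% for the parental response, 49.1 to 59.7% for the resistant response and 45.2 to 65.8% for the interaction. With no filter the median interaction was 0.15, but over 31079 genes, low counts included, in place of 16661. The small parental rises depended on the setting in size. Over all settings and left-out libraries they ran from 0.0731 to 0.146 for ENO1, 0.0750 to 0.159 for PGK1 and 0.0856 to 0.161 for LDHA. Calls lost with totals were ENO1 between untreated lines (0.0551), HK2 between treated lines (-0.0573) and the PGK1 interaction (-0.0852), and the cause was not tested. Among the 10 genes, no value that had passed changed sign. The PFKP parental response became -0.0547 with totals, -0.0187 with no filter, -0.0450 with the CPM filter and -0.00909 with compared groups only, and ran from -0.0550 to 0.0376 without single libraries. The HK2 interaction became 0.0746 with totals and 0.0443 with the CPM filter, and the PFKP interaction ran from -0.00611 to 0.086 without single libraries. Among the other named genes, the DLD interaction became 0.0171 with totals, and calls of EPAS1 and of the PDP1 and DLD interactions were lost with totals or the CPM filter. Tested against 0.5, members passing fell from 8, 7, 8, 9 and 6 to 0, 1, 3, 3 and 0 (parental response, resistant response, untreated lines, treated lines, interaction), and genes of the 4 other lists from 44, 52, 47, 54 and 43 to 3, 7, 14, 21 and 6. Same-numbered libraries of different groups did not deviate together (correlations -0.058 to 0.0272), so the numbers were not taken as pairs. The replicate block kept 49 of 50 values and lost the ALDOA call between treated lines (0.11, adjusted p = 0.0559).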
